A study of Mus musculus with 12 samples.

Results

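Retinoic acid is made from vitamin A and acts in the nucleus, and 9 genes of its handling were followed here in sorted dermal papilla (DP) cells of the mouse hair follicle. They were chosen by gene symbol as Crabp1, Crabp2, Rbp4, Stra6, Aldh1a1, Aldh1a2, Aldh1a3, Dhrs3 and Cyp26b1. All 9 were listed in both expression tables, which held 15209 genes at P14 and 15334 genes at P16 (postnatal days 14 and 16). The tables shared 14986 genes and held 15557 between them.

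Retinol travels in blood on RBP4 and enters some cells through the membrane receptor STRA6. Alcohol and short-chain dehydrogenases convert it to retinal and back, with DHRS3 working towards retinol, and the ALDH1A enzymes then oxidise retinal to retinoic acid. Inside the cell, CRABP1 and CRABP2 bind retinoic acid, CRABP2 being known for passing it to nuclear receptors, and CYP26 enzymes break it down. The DP is the cluster of mesenchymal cells at the base of the follicle that signals to the hair-forming epithelium, and retinoids are known to affect the hair cycle.

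The study asked how loss of Fgf receptors in the DP changes its gene expression towards the end of hair growth. RNA from the DP cells of 12 mice was sequenced, with 3 control and 3 dMF1/2 mice on each of 2 days, P14 and P16, both labelled as anagen, the growth phase. The dMF1/2 mice carried Cor-cre, a Cre recombinase placed in the Corin gene and active in the DP after birth, and floxed alleles of both Fgfr1 and Fgfr2 (Cor-cre/+; Fgfr1 Flox/Flox; Fgfr2 Flox/Flox). Controls were labelled as wild type, and the methods give them as either Cor-cre/+; Fgfr1 Flox/+; Fgfr2 Flox/+ or +/+; Fgfr1 Flox/Flox; Fgfr2 Flox/Flox. Both genotypes carried a ROSA26 reporter that yields YFP after Cre acts, and cells from dissociated dorsal skin were sorted for YFP by 2 rounds of flow cytometry. As the reporter needs Cre, YFP-positive cells can come only from controls of the first kind, which share Cre with the dMF1/2 mice and have 1 floxed allele of each receptor gene, although the sources used here do not give the genotype library by library. The control values are therefore, by this design, those of DP cells with Cre and 1 floxed allele of each receptor gene, not of cells without Cre. No treatment is named for any mouse.

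The libraries held 19302358 to 29860750 reads of protein-coding genes, with a median of 23062179. Fgfr1, 1 of the targeted genes, was lower in every dMF1/2 library than in every control on its day, at 6391 to 7405 normalised reads against 7745 to 9981 at P14 and at 6226 to 8015 against 8512 to 12517 at P16. Fgfr2 overlapped between the genotypes on both days. It ranged from 3669 to 5190 reads in dMF1/2 and from 4483 to 4940 in control libraries at P14, and from 4113 to 5575 and from 4763 to 5356 at P16. These counts cover the whole gene, so reads outside the floxed parts are included. All 20 DP markers were detected in every group, and their summed level was 61521 to 205377 reads after rescaling over all 12 libraries. P16 control replicate 1 had the lowest sum, 61521, against 101864 and 108798 in the other P16 controls. Markers of hair follicle keratinocytes summed to 695 to 1407 reads, with 18 of 24 in both tables and Krt25, Krt27, Krt73, Krt85, Hoxc13 and Foxn1 missing from at least 1 of them. Dermal fibroblast markers, some of which DP cells also express, summed to 113221 to 243509 reads. Sums of melanocyte, immune and skeletal muscle markers stayed at or under 984 reads, and endothelial markers at or under 2794. Adipocyte markers summed to 4724 to 8336 reads, with Adipoq, Cidec, Lep, Retn and Cfd not in both tables. Schwann and nerve markers summed to 3924 to 6303 reads, and dermal sheath markers to 28651 to 67665.

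In the sorted DP cells of dMF1/2 mice, transcripts of 2 retinoic acid binding proteins differed from control in opposite directions at P16. Crabp2 rose 3.55-fold in mean normalised reads at P16 (log2 fold change 1.80, SE 0.25, limma's adjusted p = 0.0104, 3 mice against 3). Crabp1 fell by 0.66 on the log2 scale on the same day (SE 0.14, limma's adjusted p = 0.0424). These were 2 of the 8 members tested, and 4.32% of all 13457 genes tested passed the same test at P16. Aldh1a2 averaged under 10 normalised reads in each table's 6 libraries and was not tested. At P14, 0 of the 8 members passed limma's test, with 5 at an unadjusted p under 0.05 (7.32% of all genes), and 7 of 13334 genes (0.0525%) passed over the whole table. DESeq2 called 1 member at P14 (1.4% of all genes) and 3 at P16 (7.88%), and edgeR called 0 (0.0525%) and 2 (4.48%).

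Libraries with the same number resembled each other within a day, so a fit with the replicate number as a block was also made. It called 2 members at P14, Crabp1 and Aldh1a3, against 1.68% of all genes. At P16 it called 5 members, Crabp1, Crabp2, Aldh1a1, Aldh1a3 and Cyp26b1, against 10.4% of all genes. The 3 mice of each group did not overlap with those of the other genotype in 4 of the 8 tested members at P14, compared with 12.7% of all tested genes, and in 4 at P16, compared with 24.5%.

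**Figure D1:**
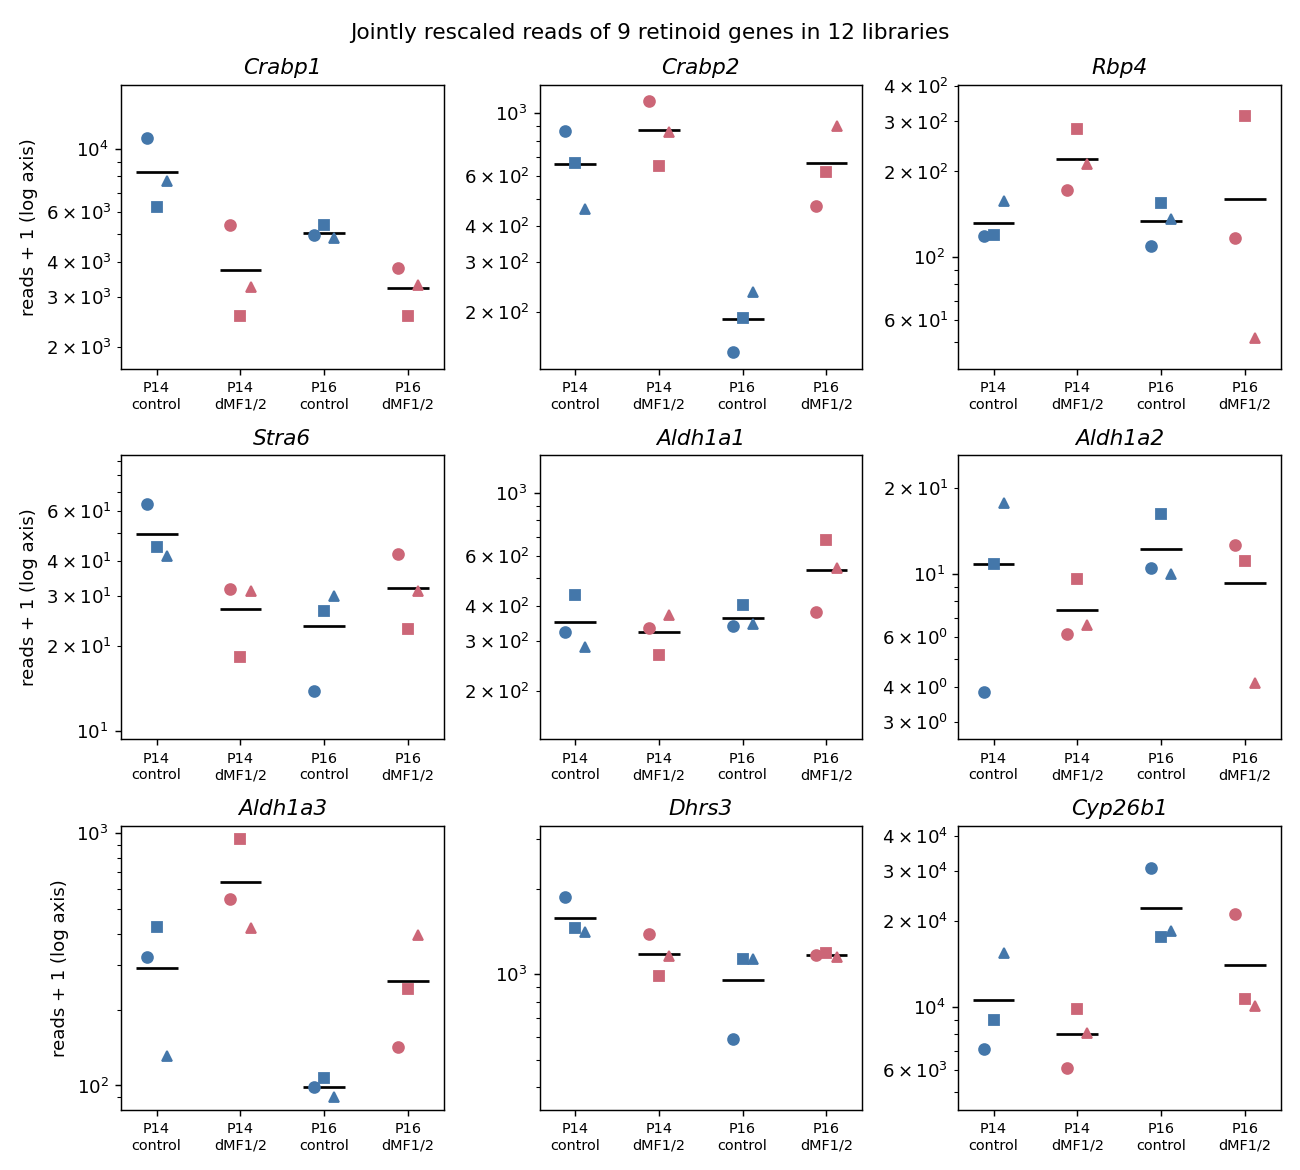
Reads plus 1 (log axis) of the 9 genes in 12 libraries, rescaled to a common size, with blue for control, red for dMF1/2, circles, squares and triangles for replicates 1, 2 and 3, and a bar at each group's mean. Crabp2 is lowest in the 3 P16 controls, and Crabp1 is lower in the dMF1/2 mice than in the controls of the same day.

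Crabp1 and Crabp2 are paralogs, and their opposite shifts rest on reads that the sequence can tell apart. The first 90 coding bases of each are shown with the 30 positions that differ in capitals, starting at chr9 base 54764902 for Crabp1 and chr3 base 87948841 for Crabp2, both on the plus strand of GRCm38.
Crabp1: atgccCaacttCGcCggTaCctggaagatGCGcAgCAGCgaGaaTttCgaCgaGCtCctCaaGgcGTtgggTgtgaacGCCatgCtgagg
Crabp2: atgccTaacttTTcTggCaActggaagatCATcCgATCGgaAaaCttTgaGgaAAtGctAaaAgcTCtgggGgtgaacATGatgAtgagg
Over 411 aligned coding bases they were 70.8% identical, with a longest shared run of 11 bases. None of the 742 words of 61 bases (the read length) in the Crabp1 transcripts and none of the 1262 in the Crabp2 transcripts occurred in a transcript of another gene. The genes lie at chr9:54764748-54773110 and chr3:87948666-87953376, and no other annotated gene overlaps either.

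Crabp1, which binds retinoic acid in the cytosol, had lower values in every dMF1/2 library than in any control of the same day. At P14 it stood at 10777, 6123 and 7599 normalised reads in control replicates 1, 2 and 3, and at 5284, 2552 and 3221 in dMF1/2 replicates 1, 2 and 3. By P16 the controls stood at 5023, 5482 and 4903 reads, and the dMF1/2 libraries at 3880, 2617 and 3383. The genotypes therefore did not overlap on either day, and replicate 2 was the lowest dMF1/2 library on both. The means with their SD were 8166 ± 2379 and 3686 ± 1424 reads at P14, a ratio of 0.451, and 5136 ± 306 and 3293 ± 637 at P16, a ratio of 0.641 (n = 3 in each group).

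The P14 difference in Crabp1 was -1.18 on the log2 scale (SE 0.30) with an adjusted p of 0.351 by limma and of 0.00142 with the replicate block. At P16 it passed with and without the block (adjusted p 0.0259 and 0.0424 by limma), but not in a joint fit of all 12 libraries (0.192). The P16 call held in 1 of the 6 fits without 1 library, the one without dMF1/2 replicate 1 (limma's adjusted p 0.0336). Limma's adjusted p was 0.0797, 0.0852 and 0.109 without control replicate 1, 2 or 3, and 0.0595 and 0.119 without dMF1/2 replicate 2 or 3. The log2 difference ran from -0.79 to -0.50 over the 6 fits. The dermal fibroblast sum was lowest at P14 in replicate 1 of both genotypes, at 117459 reads in the control and 113221 in the dMF1/2 mouse, and Crabp1 was highest in these same libraries of each genotype. They also had the lowest dermal sheath sums of their groups, 28651 and 30393 reads, and the highest DP marker sums, 185475 and 205377. Schwann and nerve sums did not overlap between the genotypes at P14, at 3924 to 4500 reads in control and 4992 to 6303 in dMF1/2 libraries. Whether the cell mixture had a part in the Crabp1 levels was not tested, and in bulk RNA fewer cells of a type and less RNA per cell cannot be told apart.

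Crabp2, the binding protein that delivers retinoic acid to its receptors, was higher in all 3 dMF1/2 libraries at P16. The controls held 145, 192 and 236 normalised reads and the dMF1/2 libraries 483, 633 and 921, a mean of 191 ± 45.7 against 679 ± 223 (SD, n = 3). The lowest dMF1/2 library exceeded the highest control. At P14 the genotypes overlapped, with 854, 656 and 452 reads in controls and 1086, 648 and 853 in dMF1/2 libraries, a log2 difference of 0.41 (SE 0.27, limma's adjusted p = 0.871, and 0.336 with the block), which was 0.17 without control replicate 3 and 0.63 without control replicate 1. The P16 rise stayed past the threshold when any 1 of the 6 libraries was left out (limma's adjusted p 0.0128 to 0.0374).

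DP markers moved with Crabp2. Their summed level in the P16 controls, 61521, 108798 and 101864 reads in replicates 1, 2 and 3, lay under all 3 dMF1/2 sums of 121905, 140862 and 184216. Of the 20 listed markers, 7 rose and 0 fell in dMF1/2 mice at P16 by limma, beside 4.32% of all genes that passed. With the block 15 rose, beside 10.4% of all genes. Alpl, alkaline phosphatase and a marker of the DP, rose with a log2 fold change of 2.45 (SE 0.22, limma's adjusted p = 0.00329). Corin, the gene that carries the Cre, was at 2776, 12352 and 7518 normalised reads in control and 15324, 22638 and 27358 in dMF1/2 libraries, a log2 difference of 1.73 (SE 0.49, limma's adjusted p = 0.0938). At P14, 0 of the 20 markers passed limma's test, beside 0.0525% of all genes, and with the block 4 rose and 1 fell, beside 1.68%. Keratinocyte marker sums overlapped between genotypes at P16, at 695 to 1143 reads in control and 923 to 1048 in dMF1/2 libraries. Markers of other cells also separated the genotypes at P16, with endothelial sums of 1639 to 2794 reads in control and 1372 to 1568 in dMF1/2 libraries, melanocyte sums of 897 to 984 and 789 to 887, and Schwann and nerve sums of 3989 to 4080 and 4247 to 5321. The part of cell composition in the Crabp2 difference was not tested.

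Expressed per kilobase of exon, Crabp1 exceeded Crabp2 in all 12 libraries, and the ratio of the pair did not overlap between the genotypes on either day. At P14 the Crabp1 to Crabp2 ratio was 20.8, 15.4 and 27.7 in control and 8.02, 6.50 and 6.22 in dMF1/2 libraries. At P16 it was 57.1, 47.1 and 34.2 in control and 13.2, 6.82 and 6.06 in dMF1/2 libraries. The mean ratio was 21.3 ± 6.19 in control against 6.91 ± 0.969 in dMF1/2 mice at P14, and 46.1 ± 11.5 against 8.71 ± 3.95 at P16 (SD, n = 3). The ratio joins members that had already passed in opposite directions at P16, so it is given as a description. An exact permutation test of its log2 value gave p = 0.1 on each day. That is the smallest p possible for 3 mice against 3, so the test cannot decide.

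**Figure D2:**
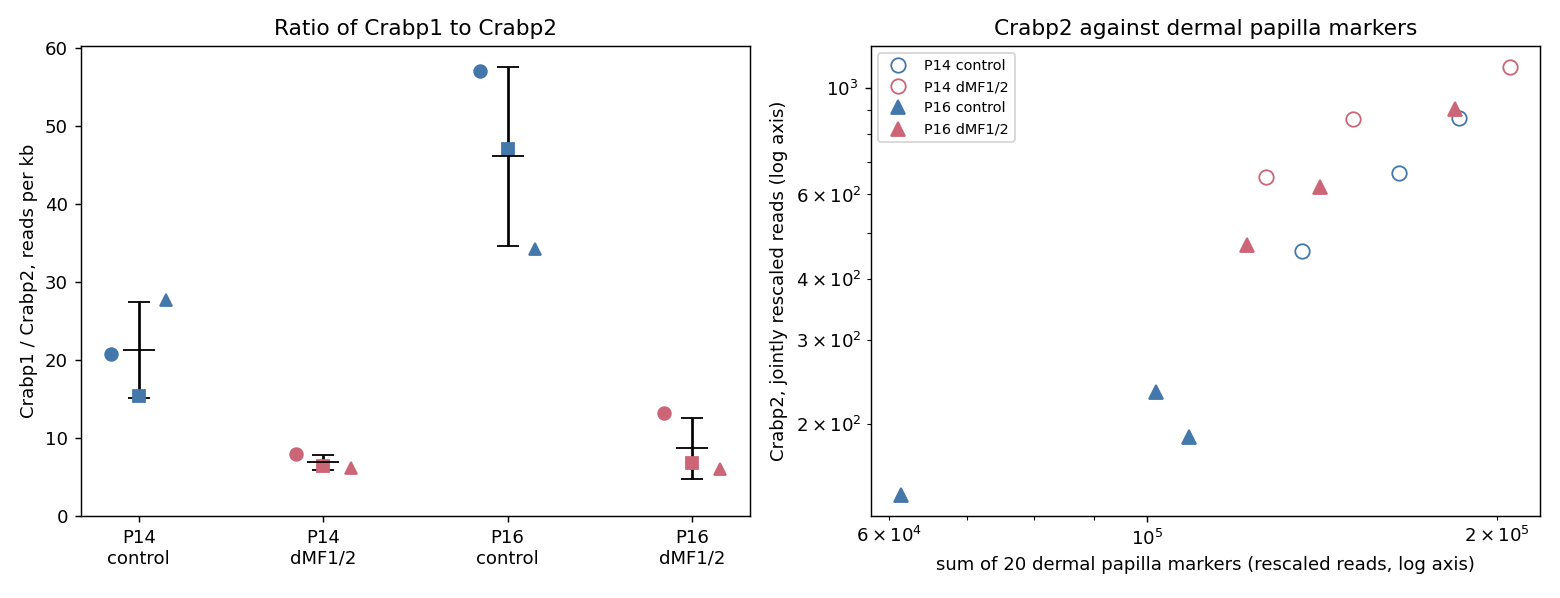
Left, the ratio of Crabp1 to Crabp2 in reads per kilobase for each library, with the mean and SD of 3 mice, and right, Crabp2 against the sum of 20 DP markers, both in rescaled reads on log axes. Ratios were 6.06 to 13.2 in the 6 dMF1/2 libraries and 15.4 to 57.1 in the 6 controls, and the 3 P16 controls lie lowest on both axes of the right panel.

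The start of Crabp1 is shown because the gene was lower in dMF1/2 mice on both days. The window covers the 250 bases before its RefSeq start, chr9:54764498-54764747 on the plus strand of GRCm38.p6, with the GC box letters GGGCGG on either strand in capitals.
Crabp1 window: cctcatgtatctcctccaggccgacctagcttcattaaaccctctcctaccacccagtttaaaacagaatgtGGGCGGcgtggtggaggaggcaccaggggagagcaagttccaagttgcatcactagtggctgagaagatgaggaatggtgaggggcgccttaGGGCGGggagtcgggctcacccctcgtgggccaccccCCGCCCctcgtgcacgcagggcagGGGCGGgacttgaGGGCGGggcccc
It holds 5 GC boxes and no TATAAA on either strand, with a GC content of 63.6%. At least 1 GC box was present in 32.7% of 32851 mouse windows of this length, and at least 5 in 1.93%. RefSeq windows were found for 7 of the 9 members. Direct repeats of the hexamer AGGTCA, its variant AGTTCA, the variant GGGTCA or the variant GGTTCA with spacers of 1, 2 or 5 bases, the usual layout of retinoic acid receptor sites, were searched on both strands and matched in no window of these members, while 0.164%, 0.174% and 0.0883% of all windows held them. A single hexamer, which each repeat also contains, occurred in 38.6% of all windows and in the windows of Aldh1a1 and Rbp4 among the members. A window without a match says only that these letters are not in it.

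Supply of retinol to the cell was represented by Rbp4 and Stra6, and neither passed limma's test in any comparison. Rbp4, the plasma carrier of retinol (chr19:38116620-38125321, minus strand), was at 117, 117 and 154 normalised reads in P14 controls and 168, 280 and 209 in P14 dMF1/2 libraries, which do not overlap. Its log2 difference there was 0.74 (SE 0.22, limma's adjusted p = 0.430, and 0.119 with the block). At P16 the dMF1/2 libraries spread from 51.9 through 118 to 318 reads around the controls, which held 110, 157 and 137. That difference was -0.09 (SE 0.55, 95% interval -1.36 to 1.18), and it took the other sign under DESeq2 and edgeR, at 0.28 and 0.29.

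Stra6, the receptor that takes retinol from RBP4, was low. The P14 controls held 61.5, 42.9 and 40.0 normalised reads and the dMF1/2 libraries 30.3, 17.1 and 30.0, without overlap (log2 difference -0.89, SE 0.31, limma's adjusted p = 0.560, and 0.201 with the block). At P16 the controls held 13.1, 25.9 and 29.4 and the dMF1/2 libraries 42.1, 22.4 and 30.7, which overlap (log2 difference 0.49, SE 0.37, limma's adjusted p = 0.560, with a difference of 0.15 without control replicate 1). The gene, at chr9:58063788-58153996 on the plus strand, overlaps Ccdc33 on the minus strand and the antisense-type gene Gm16131. The libraries were made with a stranded kit, but the strand setting of the counting is not given in the sources used here, so reads of these overlaps cannot be assigned with certainty.

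The ALDH1A enzymes, which make retinoic acid from retinal, differed widely in level. Per kilobase in the P14 controls, Aldh1a1 averaged 70.6 ± 16.05, Aldh1a3 63.4 ± 32.5 and Aldh1a2 4.33 ± 3.09 rescaled reads (SD, n = 3), and the ranges of Aldh1a1 and Aldh1a3 overlapped. Aldh1a3, at chr7:66390890-66427517, was at 320, 419 and 128 normalised reads in P14 controls and 543, 942 and 417 in P14 dMF1/2 libraries. At P16 it was at 98.7, 108 and 90.2 in controls and 145, 245 and 402 in dMF1/2 libraries. The groups overlapped at P14 and not at P16. Its log2 difference was 1.21 at P14 (SE 0.47, limma's adjusted p = 0.628, and 0.0169 with the block) and 1.29 at P16 (SE 0.32, limma's adjusted p = 0.0668, and 0.0346 with the block). Without P14 control replicate 3 the P14 difference was 0.71. Without P16 dMF1/2 replicate 1 the P16 difference passed limma's test at 1.66 (adjusted p = 0.0193). Of its 4601 words of 61 bases, 0.891% also occurred in other genes.

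Aldh1a1, at chr19:20601961-20643462, was at 320, 431 and 281 normalised reads in P14 controls and 329, 265 and 367 in P14 dMF1/2 libraries, which overlap (log2 difference -0.09, SE 0.19, limma's adjusted p = 0.991). At P16 the controls held 342, 409 and 350 and the dMF1/2 libraries 389, 695 and 554, which also overlap, because dMF1/2 replicate 1 lay below control replicate 2. The P16 log2 difference was 0.54 (SE 0.20), with an adjusted p of 0.189 by limma, 0.0434 with the block and 0.0449 without dMF1/2 replicate 1, and the difference was 0.34 without dMF1/2 replicate 2. Aldh1a2, at chr9:71215789-71296243, held 2.8 to 16.6 normalised reads over all 12 libraries, with overlapping genotypes on both days, and no test was made. Pseudogenes overlap both genes, Gm6684 in Aldh1a1 and Gm48124 in Aldh1a2, as does the non-coding C730002L08Rik in Aldh1a1.

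Aldh1a7, a close relative of Aldh1a1 on the opposite strand of chr19, was the gene of the wider retinoid list that rose at P16 by limma. The first 90 coding bases of both are shown because their reads are the hardest of the family to tell apart, with the 5 positions that differ in capitals, from base 20602012 (plus strand) in Aldh1a1 and base 20727512 (minus strand) in Aldh1a7.
Aldh1a1: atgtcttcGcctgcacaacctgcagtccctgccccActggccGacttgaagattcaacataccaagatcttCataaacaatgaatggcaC
Aldh1a7: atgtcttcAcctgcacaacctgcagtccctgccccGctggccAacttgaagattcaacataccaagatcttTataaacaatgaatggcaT
Their coding sequences of 1503 bases were 91.6% identical, with a shared run of 100 bases, against 67.4% between Aldh1a1 and Aldh1a3. Of the 61-base words in Aldh1a1 transcripts, 2.03% also occurred in Aldh1a7, and of those in Aldh1a7, 4.99% occurred in Aldh1a1. Aldh1a7 held 11.3, 29.0 and 7.1 normalised reads in P16 controls and 56.2, 98.0 and 112 in dMF1/2 libraries (log2 fold change 2.58, SE 0.49, limma's adjusted p = 0.0273). The call was lost without control replicate 1 (adjusted p 0.0579) or 3 (0.0743) and without dMF1/2 replicate 2 (0.0884) or 3 (0.116).

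Dhrs3, which reduces retinal to retinol and so limits retinoic acid, shifted in opposite directions on the 2 days without passing the test on either. In P14 controls it held 1846, 1431 and 1386 normalised reads, and in P14 dMF1/2 libraries 1368, 974 and 1143, just below the controls (log2 difference -0.42, SE 0.16, limma's adjusted p = 0.615, and 0.0639 with the block). At P16 the dMF1/2 libraries held 1196, 1203 and 1170, within a narrow band above the controls at 599, 1149 and 1144 (log2 difference 0.36, SE 0.23, limma's adjusted p = 0.461). Without control replicate 1, the control with the lowest DP marker sum, the P16 difference was 0.05. The gene lies at chr4:144892827-144928209 on the plus strand.

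Cyp26b1 encodes an enzyme that breaks retinoic acid down, and per kilobase it came after Crabp1 as the second most abundant member in each group. It lies at chr6:84571414-84593908 on the minus strand. Controls held 7020, 8879 and 15265 normalised reads at P14 and 31314, 17905 and 18703 at P16, and dMF1/2 libraries 5991, 9730 and 7978 at P14 and 21750, 10859 and 10240 at P16. The genotypes overlapped on both days. Within each pair of equal number at P16 the dMF1/2 library was lower, and the log2 difference of -0.71 (SE 0.32) had an adjusted p of 0.283 by limma and 0.00623 with the block. It ran from -1.05 without dMF1/2 replicate 1 to -0.45 without control replicate 1. At P14 the difference was -0.34 (SE 0.30, limma's adjusted p = 0.930, and 0.499 with the block), and it was -0.59 without control replicate 1 and -0.03 without control replicate 3.

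**Figure D3:**
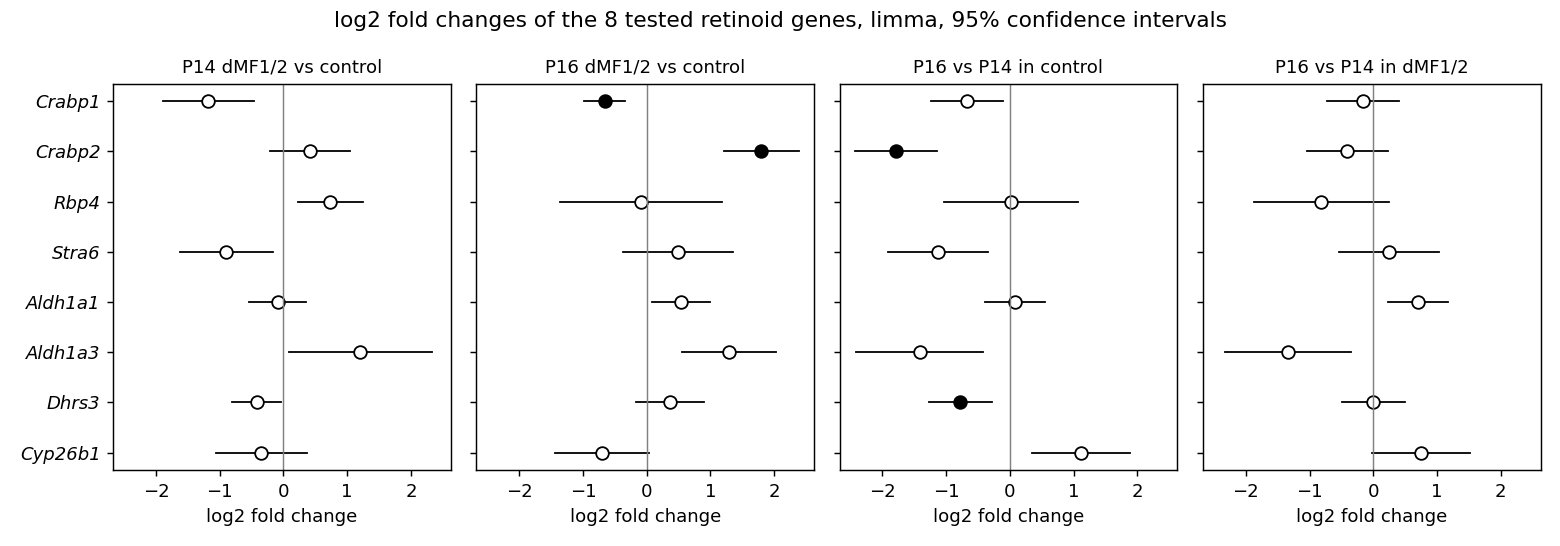
Fold changes (log2) of the 8 tested genes with 95% confidence intervals from limma in the 2 genotype comparisons and the 2 day comparisons, with filled points for an adjusted p under 0.05. Filled points are Crabp1 (-0.66) and Crabp2 (1.80) at P16, and Crabp2 (-1.79) and Dhrs3 (-0.78) between the days in control mice.

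The order of the members by level per kilobase was similar in the 4 groups. Crabp1 came first, at a mean of 10318, 4650, 6311 and 4026 rescaled reads per kilobase in P14 control, P14 dMF1/2, P16 control and P16 dMF1/2 mice. Cyp26b1 followed at 1967, 1492, 4169 and 2615, and the ranges of these 2 genes overlapped in the P16 dMF1/2 group alone. Dhrs3 stood above Crabp2 in both control groups, at 538 and 501 at P14 and 325 and 142 at P16, and below it in both dMF1/2 groups, at 401 and 660 at P14 and 399 and 504 at P16. The ranges of Dhrs3 and Crabp2 overlapped in P14 control and P16 dMF1/2 mice. Group means of Rbp4, Aldh1a1 and Aldh1a3 ran from 21.1 to 165, and those of Stra6 and Aldh1a2 from 2.85 to 8.37, with overlapping ranges in every group.

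Between P14 and P16 in control mice, 2 of the 8 tested members fell and none rose by limma, while 14.5% of all 13415 genes tested passed in either direction and 8.28% fell. DESeq2 called 6 members (18% of all genes). Levels between days are given after rescaling all 12 libraries together. Crabp2 fell from 865, 665 and 458 reads to 143, 189 and 233, which do not overlap, and its mean dropped from 663 to 188 (log2 fold change -1.79, SE 0.29, limma's adjusted p = 0.00418). It passed when any 1 of the 6 control libraries was left out (adjusted p 0.00364 to 0.0209). In the same mice the DP marker sums went from 135890 to 185475 reads at P14 to 61521 to 108798 at P16, and 9 of the 20 markers fell by limma, Corin with a log2 fold change of -2.22 (adjusted p = 0.0133, and 0.0519 without P14 control replicate 1). Melanocyte marker sums went from 544 to 701 reads at P14 to 897 to 984 at P16. The part of these markers in the Crabp2 fall was not tested.

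Dhrs3 fell from 1869, 1452 and 1404 to 590, 1130 and 1130 reads in controls, again without overlap (log2 fold change -0.78, SE 0.22, limma's adjusted p = 0.0394). Leaving out P14 control replicate 1 or 2 or P16 control replicate 1 gave Dhrs3 an adjusted p of 0.139, 0.0738 or 0.0922. Its log2 fold change ran from -0.93 to -0.47 when 1 library was left out. Among the members that missed the threshold, Aldh1a3 went from a mean of 293 to 97.5 reads (log2 difference -1.42, adjusted p = 0.0568), Stra6 from 48.8 to 22.5 (-1.13, 0.0550) and Cyp26b1 from 10527 to 22314 (1.11, 0.0543). These 3 did not overlap between days in control mice, nor did Crabp1 (-0.67, limma's adjusted p = 0.101). With Crabp2 and Dhrs3, 6 of the 8 members did not overlap between days, compared with 36% of all tested genes. Without P14 control replicate 3, Aldh1a3 (-1.92, adjusted p = 0.0130) and Cyp26b1 (1.43, adjusted p = 0.0229) passed too. Rbp4 and Aldh1a1 had log2 differences of 0.02 and 0.07.

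In dMF1/2 mice 0 of the 8 members passed between the days by limma, against 5.8% of all genes, and 2 had an unadjusted p under 0.05, Aldh1a1 and Aldh1a3, as did 22.8% of all genes. DESeq2 called both (9.9% of all genes) and edgeR neither (5.72%). Aldh1a1 went from a mean of 323 to 536 reads (log2 difference 0.70, SE 0.21, limma's adjusted p = 0.0803) and Aldh1a3 from 641 to 259 (-1.34, SE 0.45, limma's adjusted p = 0.104), both without overlap. With Cyp26b1, 3 of the 8 members did not overlap between days in dMF1/2 mice, compared with 27.6% of all tested genes. Melanocyte marker sums did not overlap either, at 616 to 658 reads at P14 and 789 to 887 at P16, and their part was not tested. Leaving out P16 dMF1/2 replicate 1 brought Aldh1a1 past the threshold (0.92, adjusted p = 0.0452), and leaving out P16 dMF1/2 replicate 2, the library with the most Rbp4, did so for Rbp4 (-1.49, adjusted p = 0.0303). Crabp2 went from 872 to 666 reads (-0.41, 95% interval -1.05 to 0.23), Dhrs3 from 1175 to 1166 (0.00, -0.49 to 0.49) and Stra6 from 26.1 to 31.1 (0.25, -0.54 to 1.03).

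The difference of the day changes between genotypes was tested directly. No member passed and no gene of 13415 did (0%), with 648 genes (4.83%) at an unadjusted p under 0.05, while DESeq2 called 6 genes and edgeR 0, none of them a member. The difference for Crabp2 was 1.38 (SE 0.41, unadjusted p = 0.00609), for Stra6 1.38 (SE 0.51, unadjusted p = 0.0191) and for Dhrs3 0.78 (SE 0.32, unadjusted p = 0.0302), each with an adjusted p of 1 by limma. When 1 library was left out, it ran from 1.14 to 1.63 for Crabp2, 1.04 to 1.60 for Stra6 and 0.47 to 0.94 for Dhrs3. Thus the falls of Crabp2 and Dhrs3 that passed in control mice are not shown to differ from the change in dMF1/2 mice.

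Across the 12 libraries, several members varied together. Pearson's r of log2 levels was 0.83 between Crabp2 and Aldh1a3 and 0.90 between Dhrs3 and Stra6, while Cyp26b1 ran opposite to Crabp2 (-0.90) and Aldh1a3 (-0.83). Weaker correlations linked these genes, at -0.68 between Dhrs3 and Cyp26b1 and 0.64 between Dhrs3 and Crabp2. Stra6 and Crabp1 had an r of 0.61, and Aldh1a2, at its low counts, had -0.62 with Crabp2 and 0.63 with Cyp26b1. These are descriptions over 12 libraries that share the group structure and, within a day, mice of equal number. P16 control replicate 1 had the highest Cyp26b1 and the lowest Crabp2, Dhrs3 and Stra6 of all libraries. The 250 bases before the RefSeq starts of Dhrs3 (chr4:144892577-144892826) and Stra6 (chr9:58128838-58129087, an intron of a longer Stra6 transcript), both on the plus strand of GRCm38.p6, are shown as those of members that varied together, with GC boxes in capitals.
Dhrs3 window: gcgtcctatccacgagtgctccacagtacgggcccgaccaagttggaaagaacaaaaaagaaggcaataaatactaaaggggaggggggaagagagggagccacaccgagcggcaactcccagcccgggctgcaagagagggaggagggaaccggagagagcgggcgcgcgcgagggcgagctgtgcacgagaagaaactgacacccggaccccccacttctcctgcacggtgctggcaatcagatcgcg
Stra6 window: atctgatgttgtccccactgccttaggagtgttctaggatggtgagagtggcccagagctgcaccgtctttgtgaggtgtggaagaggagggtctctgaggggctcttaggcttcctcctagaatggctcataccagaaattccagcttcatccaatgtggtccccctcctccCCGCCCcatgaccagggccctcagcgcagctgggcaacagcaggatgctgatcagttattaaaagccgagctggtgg
The Dhrs3 window holds 0 GC boxes and the Stra6 window 1, and neither holds TATAAA or the repeats of retinoic acid receptor sites described above. Both genes have further RefSeq starts, and the window shown is the first listed that overlaps no annotated exon of its gene.

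**Figure D4:**
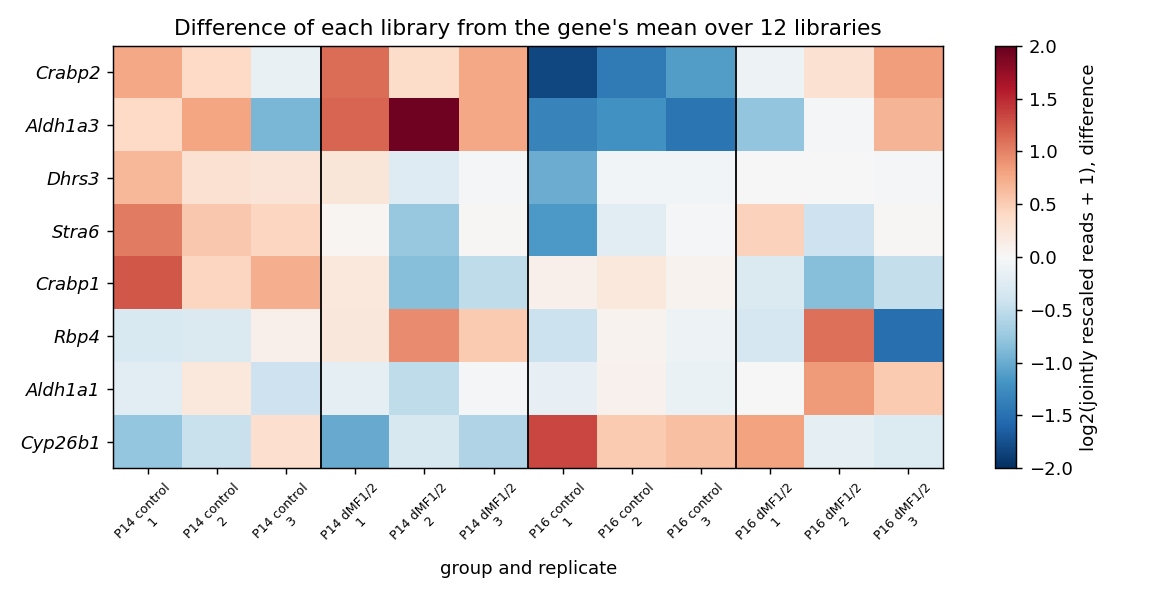
Difference of each library from the mean of the gene over 12 libraries, on the log2(rescaled reads + 1) scale, for the 8 tested genes, with libraries ordered by group and replicate. Crabp2 and Aldh1a3 are low together in the 3 P16 controls, where Cyp26b1 is high.

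The genes whose pattern was most like a member's were taken from 10239 genes with a mean of at least 100 reads, and are given for 3 of the members with the largest spread. For Crabp2 these were Alx4 (r = 0.981), Nrg2 (0.978) and Steap1 (0.977), and for Aldh1a3 they were Csdc2 (0.946), Cdc23 (0.945) and Me2 (0.937). Cyp26b1 was followed most closely by Slc39a14 (0.974), Eepd1 (0.962) and Klhl29 (0.960).

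Of 48 other listed genes of retinoid handling, 33 were in both tables. At P14, 0 of 24 tested passed limma's test between genotypes (4 at an unadjusted p under 0.05), where 0.0525% of all genes passed and 7.32% had an unadjusted p under 0.05. At P16, 1 of 25 rose (Aldh1a7, above) and 1 fell (Fabp5), beside 4.32% of all genes. With the block, Aldh1a7 and Cyp1b1 rose and Fabp5 and Scarb1 fell, beside 10.4% of all genes. The median log2 difference of the list was -0.05 at P14 and 0.09 at P16, and over all genes 0.00 on both days. Fabp5, a fatty acid binding protein that can also carry retinoic acid to another class of receptors, held 279, 286 and 304 normalised reads in P16 controls and 167, 165 and 226 in dMF1/2 libraries (log2 fold change -0.65, SE 0.14, limma's adjusted p = 0.0452). When 1 library was left out, Fabp5 passed without dMF1/2 replicate 3 (0.0350) and not without control replicate 1, 2 or 3 (0.0884, 0.0809 and 0.148) or dMF1/2 replicate 1 or 2 (0.134 and 0.120).

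Between the days in control mice, 4 of the 24 tested genes of this list fell and none rose by limma, among them Rdh14 and Dhrs7, both short-chain dehydrogenases (log2 fold changes -0.50 and -0.44, adjusted p 0.0342 and 0.0193), and the carboxylesterase Ces1d (-2.56, adjusted p = 0.0133), beside 8.28% of all genes that fell. Rdh14 and Dhrs7 passed in 2 of the 6 fits without 1 library, those without P14 control replicate 3 or P16 control replicate 2, and Ces1d missed without P16 control replicate 1 (0.0546). With only the 6 control libraries, Rdh14 and Ces1d missed as well (0.0707 and 0.0589). In dMF1/2 mice 1 of 24 rose between the days, the cytochrome Cyp1b1 (log2 fold change 0.56, SE 0.13, limma's adjusted p = 0.0345), and none fell, beside 5.8% of all genes that passed. That call held in 1 of the 6 fits without 1 library, the one without P14 dMF1/2 replicate 1 (0.0374), with adjusted p of 0.0629 to 0.119 in the others and 0.0916 with the block. The 3 most abundant genes of the list were Lrp1, a large lipoprotein receptor, Cyp1b1 and the alcohol dehydrogenase Adh7, with means over 12 libraries of 88621, 4517 and 2292 rescaled reads. None of these 3 passed limma's test between genotypes, with P16 log2 differences of 0.39, 0.52 and 0.21, but Cyp1b1 passed at P16 with the block (adjusted p = 0.0339), by DESeq2 (0.0320) and by limma without P16 control replicate 2 (0.0354).

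The retinoid receptor list held 7 genes, Rara, Rarb, Rarg, Rxra, Rxrb, Rxrg and Ppard, a receptor outside the Rar and Rxr genes. Of these, 0 of 7 tested at P14 and 0 of 6 at P16 passed between genotypes by limma, beside 0.0525% and 4.32% of all genes. None had an unadjusted p under 0.05 on either day (7.32% and 19% of all genes). With the block Rarg rose at P16, where 10.4% of all genes passed. Rarg, Rxra and Rara were the most abundant, with means of 3793, 3405 and 976 rescaled reads over 12 libraries. Rara, a receptor of retinoic acid, fell between the days in control mice (log2 fold change -0.53, SE 0.11, limma's adjusted p = 0.0107) and in dMF1/2 mice (-0.47, SE 0.11, limma's adjusted p = 0.0273). In control mice it passed when any 1 library was left out (adjusted p 0.0123 to 0.0448) and missed with the block (0.105). In dMF1/2 mice it passed without P16 dMF1/2 replicate 1 (0.0441) and missed in the other 5 fits without 1 library (0.0642 to 0.0846), with only the 6 dMF1/2 libraries (0.0604) and with the block (0.0796). The other 6 receptors did not pass in either genotype, so 1 of 7 passed in each, beside 14.5% of all genes in control and 5.8% in dMF1/2 mice.

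Of 24 genes known to be induced by retinoic acid, 0 of 18 tested passed between genotypes at P14 by limma (3 at an unadjusted p under 0.05, beside 7.32% of all genes), and 2 of 20 fell and 0 rose at P16, beside 0.0525% and 4.32% of all genes that passed. Both are known for more than a response to retinoic acid. Rai14, which encodes an actin-associated protein, held 1276, 763 and 1582 normalised reads in P16 controls and 441, 300 and 319 in dMF1/2 libraries (log2 fold change -1.73, SE 0.26, limma's adjusted p = 0.0126). Dusp6, a phosphatase of ERK and a well-known target of Fgf signalling, went from 684, 723 and 803 to 292, 421 and 405 (-0.996, SE 0.15, limma's adjusted p = 0.0125). Rai14 missed the threshold without dMF1/2 replicate 3 (0.0621) and Dusp6 without control replicate 3 (0.0574). The most abundant genes of the list, Zfp703, Meis1 and Rarres2, had means of 2195, 1925 and 1617 rescaled reads and P16 log2 differences of -0.02, 0.13 and -0.03, none of which passed. Between days in control mice 2 of 18 tested fell by limma, Hic1 among them, and 1 rose, Rai14, beside 14.5% of all genes that passed. Hic1 missed the threshold without P16 control replicate 1 (0.0746) or 2 (0.0510), and Rai14 passed in 2 of the 6 fits without 1 library, those without P14 control replicate 3 or P16 control replicate 2. In dMF1/2 mice 0 of 18 passed, with 4 at an unadjusted p under 0.05, beside 22.8% of all genes.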

How the data were processed

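DP cells of 3 control and 3 dMF1/2 mice per day were compared at P14 and P16. After depletion of ribosomal RNA, the authors made stranded libraries and read 61 bases from 1 end. Per the labels and the methods, Trimmomatic, TopHat2 (mm10), HTSeq (GRCm38.p4) and DESeq2 were used, and further versions are not given in the sources used here. The deposited values are a signal, namely reads per protein-coding gene that the authors divided by DESeq2 size factors over the 6 libraries of a day. Every value was a whole multiple of 1 read (100% within 0.001), so whole reads were recovered. The tables start at 12 reads over 6 libraries. Their columns of the authors' fold changes, standard errors, test scores and p-values were not used.

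Limma 3.58.1 in R 4.3.3 was run on log2(normalised reads + 1), with a mean-variance trend, where the mean over the fitted libraries reached 10, with Benjamini-Hochberg adjusted p-values over all genes and a threshold of 0.05. Fold changes are on that scale, which understates those of low genes. Genotypes were compared within a day. For day changes and their difference, 14986 shared genes were rescaled over 12 libraries by median of ratios and fitted as 4 groups. Libraries with the same replicate number were checked for pairing by the correlation of deviations from group means, which lay between 0.288 and 0.573 at P14, between 0.266 and 0.319 at P16 and between -0.162 and 0.208 across days. Libraries of equal number were thus alike within a day, but those of unequal number were not compared. Whether the numbers pair mice is not stated in the sources used here. Recovered reads were also tested with DESeq2 1.42.0 and edgeR 4.0.16, and the fits were tested on simulated data. Intervals are at 95%.

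All 9 members were named, with genes of 3 retinoid lists that passed between genotypes or were the 3 most abundant, while genes that passed between days were named after their values were seen. Some genes that these rules name are not reported here. Members and lists were chosen with earlier results of these data known. Exon lengths and overlaps come from GENCODE M21 (GRCm38) and windows from RefSeq (GRCm38.p6).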

Additional observations from a re-analysis of the deposited data

How the results depend on the processing

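The number of members called at P14 was 0 by limma, 1 by DESeq2 (1.4% of all genes) and 2 with the replicate block (1.68%). At P16 it was 2 by limma, 5 with the block (10.4%), 1 in a joint fit of 12 libraries (4.44%; Crabp2, with Crabp1 at an adjusted p of 0.192) and 1 to 4 when 1 library was left out (1.11% to 5.08%); DESeq2 called 3 (7.88% of all genes), adding Aldh1a3. Between days in control mice it was 2 by limma, 6 by DESeq2 (18% of all genes), 1 with the 6 compared libraries alone (6.01%), 0 with the block on these libraries (0.104%), and 1 to 4 when 1 was left out (5.17% to 14.5%). Libraries of equal number were not alike throughout across days, so that block is given for completeness. In dMF1/2 mice it was 0, 2 by DESeq2 (9.9% of all genes) and 0 to 1 when 1 library was left out (1.92% to 5.05%), and 0 with the block (1.02%). No member passed the test of the difference between day changes under any alternative, the block included.

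The sign turned in these log2 differences, none of which passed limma's test. At P14 Aldh1a1 ran from -0.23 to 0.081 when 1 library was left out. At P16 Rbp4 had 0.28 by DESeq2, 0.29 by edgeR and -0.76 to 0.54 when 1 library was left out. In control mice between days Rbp4 had -0.0016 by edgeR, -0.0056 with TMM scaling and -0.10 to 0.15 without 1 library, and Aldh1a1 -0.061 to 0.25. In dMF1/2 mice Dhrs3 had -0.011 by DESeq2, -0.021 by edgeR, -0.011 with TMM scaling and -0.12 to 0.13 without 1 library, Crabp1 -0.39 to 0.14 and Stra6 -0.015 to 0.47. The difference between day changes of Aldh1a3 ran from -0.29 to 0.58. The cause was not tested in any of these cases. Counting error weighs most on Stra6 and Aldh1a2, the members with the fewest reads.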
